A study of Homo sapiens with 6 samples.

Results

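Interferon-stimulated genes (ISGs) are the genes that cells switch on when interferon binds its receptor or when viral nucleic acid is sensed. The 51 genes described here were taken by symbol from a list of well known ISGs, and each matched 1 of the 33095 genes in both of the authors' deposited tables. The tables come from MM.1S, an established human multiple myeloma line. Its cells had been transduced with lentivirus carrying a scramble control hairpin, IRF3 shRNA 1 or IRF3 shRNA 2, with 2 poly(A)-selected libraries per arm and 6 in all. All 3 arms thus carried a lentiviral hairpin, and an arm without virus was not analysed here. Each of the authors' tables compares 1 hairpin with scramble and gives a mean normalised read count over all libraries, a log2 fold change with its standard error (SE) and an adjusted p. Values of single libraries were not used here, so replicate spread is known only through the SEs and the depth of each library is unknown. Nothing in the labels tells if the 2 libraries of an arm are separate cultures. The p-values thus cover the spread among 6 libraries only, and that spread may be technical. In bulk RNA, a lower level in every cell and fewer expressing cells cannot be told apart.

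Interferon bound to its receptor activates the kinases JAK1 and TYK2, which phosphorylate STAT2 among others. Together with IRF9 it takes part in a complex that binds the interferon-stimulated response element (ISRE) in promoters of ISGs. IRF3, activated by nucleic acid sensing, induces interferon beta and can bind the same kind of element itself, at genes such as IFIT1, IFIT2, IFIT3, ISG15, OASL, RSAD2 and CXCL10. IRF4, a relative on which myeloma cells depend, recognises the same core bases, alone or with partner factors. The products of ISGs bind or cut foreign RNA, attach ISG15 or ADP-ribose to proteins, hold virions at the membrane or amplify the response.

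For IRF3 itself the authors' deposited tables give log2 fold changes of -1.53 ± 0.10 (SE) for shRNA 1 and -0.18 ± 0.10 for shRNA 2, with DESeq2 adjusted p of 8.45e-46 and 0.181. A fall of the targeted transcript was thus not shown in the libraries labelled shRNA 2, and directions given for shRNA 2 are those of libraries so labelled. IRF4 fell in both, by 1.21 and 1.87 on the log2 scale in the authors' deposited tables (DESeq2 adjusted p of 2.72e-45 and 4.26e-107). Both comparisons share the same scramble libraries. Of the 10 plasma cell and myeloma markers, all were in the tables, with means from 1665 to 31453. Their summed reconstructed level was 154188 in scramble, 112553 with shRNA 1 and 101017 with shRNA 2. Not all of them fell: SDC1 rose with shRNA 1, at 0.28 ± 0.09, and CD38 with shRNA 2, at 0.89 ± 0.15 (DESeq2 adjusted p of 0.0172 and 7.87e-08, authors' deposited tables). The other markers that passed in a comparison were lower. Markers of other cell types were in the tables for 13 of 15, with means of at most 144. These 13 summed to 539 in scramble, 453 with shRNA 1 and 284 with shRNA 2, with CD3D and NKG7 not listed. Without NCAM1 and HBB, left out after their values were seen, the other 11 summed to 135, 211 and 152. Among these 11 was CD3E, also named after its values were seen, with reconstructed means of 33.2, 84.4 and 53.7. CD3E passed as higher with shRNA 1, at 1.35 ± 0.48 (DESeq2 adjusted p of 0.0230, authors' deposited table). NCAM1 passed as lower with both hairpins and HBB as lower with shRNA 2. The part of either marker list in the results was not tested.

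The ISRE core was searched in RefSeq promoter windows (GRCh38.p14, 250 bases before to 50 bases after the start of transcription) as 2 copies of GAAA with any 2 bases (NN) between them, on both strands. Windows matched 41 of the 51 members; DHX58, IFIT2, LAMP3, MX2, OAS2, OASL, PARP10, TRIM22, USP18 and ZNFX1 had none. The core was found in 27 of the 41 members, or 65.9%, against 4.38% of the 27305 gene symbols in the table and 3.57% of its 35116 windows. The 27 members held 47 matches, overlapping matches counted apart, of which 43 lay wholly before the start and 24 had their centre within the 100 bases before it. A match describes these letters only and is not evidence of binding. Sites of 9 members that differed between the hairpins, of 3 that changed alike and of ISG15 follow on the strand that reads GAAA. Each is 30 bases long, with the core in capitals, and the divergent genes PARP9 and DTX3L share 1 site. Only 1 site is printed per gene, although OAS3, MX1, HERC5, BST2, DDX60L and ISG15 hold more. PLSCR1, which also differed between the hairpins, holds a site that is not printed.
OAS3 (chr12:112938321-112938350, plus strand): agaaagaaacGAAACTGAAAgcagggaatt
EIF2AK2 (chr2:37156967-37156996, minus strand): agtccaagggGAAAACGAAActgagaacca
MX1 (chr21:41420559-41420588, plus strand): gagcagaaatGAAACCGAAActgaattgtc
ISG20 (chr15:88638937-88638966, plus strand): taacaaactaGAAACTGAAAcagggtcggg
HERC5 (chr4:88457035-88457064, minus strand): agctccagtgGAAAACGAAAcataatgttt
BST2 (chr19:17405741-17405770, minus strand): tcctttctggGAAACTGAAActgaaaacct
GBP1 (chr1:89065316-89065345, plus strand): agagtaatatGAAACTGAAAgtacttcgtt
DDX60L (chr4:168480523-168480552, minus strand): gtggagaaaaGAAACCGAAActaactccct
CXCL10 (chr4:76023699-76023728, minus strand): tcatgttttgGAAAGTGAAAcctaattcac
PARP9 and DTX3L (chr3:122564322-122564351, plus strand): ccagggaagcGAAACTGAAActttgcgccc
SAMD9 (chr7:93118096-93118125, minus strand): tctgagaaatGAAACTGAAAccaaacctat
ISG15 (chr1:1013380-1013409, plus strand): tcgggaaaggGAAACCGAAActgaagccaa

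**Figure D1:**
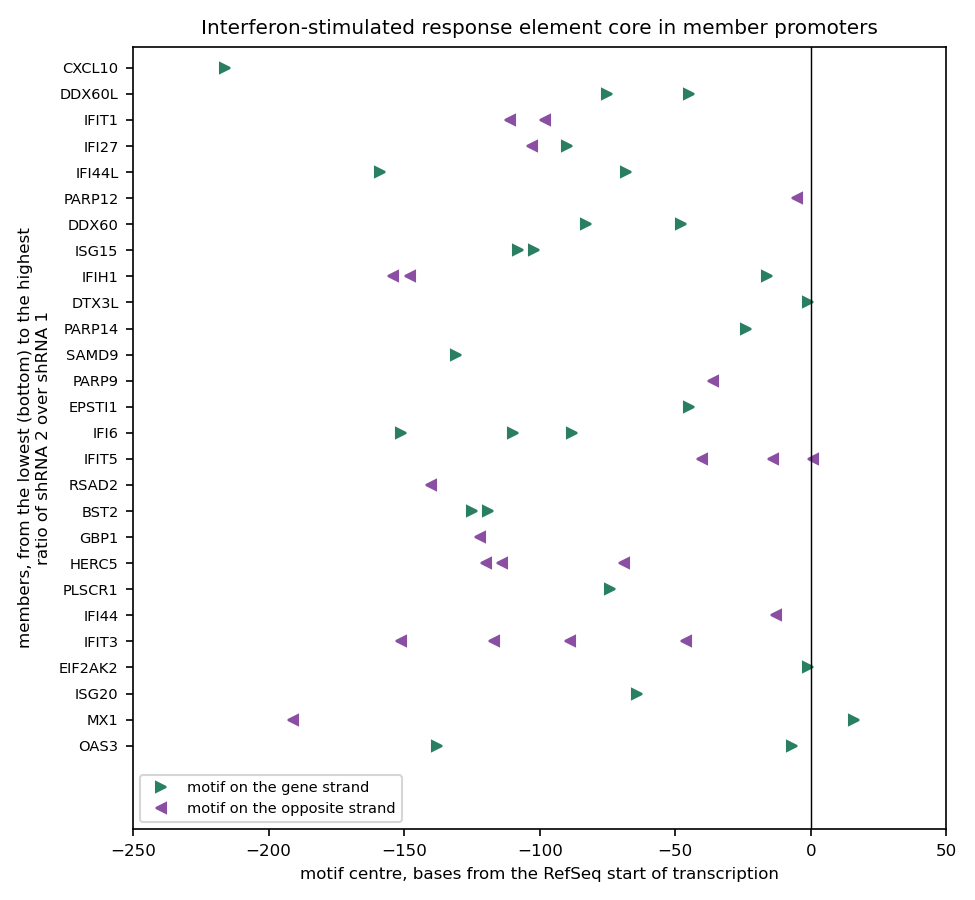
Position of each ISRE core match (x axis, bases from the RefSeq start of transcription, which is the line at 0) in the 27 members that hold one, ordered from the lowest ratio of shRNA 2 over shRNA 1 at the bottom to the highest at the top. Triangles point right for matches on the gene strand and left for the opposite strand; most of the 47 matches lie before the start, and CXCL10, at the top, has its single match farthest upstream.

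ISGs were expressed over a wide range of levels in these cells, for which the labels name no interferon treatment. Members' mean normalised read counts ran from 6.24 for IFIT2 to 12832 for the RNA-editing enzyme ADAR, with 8 members under 50 and 17 at 1000 or more. Per kilobase of the longest annotated coding transcript, the reconstructed scramble level was highest for the virion tether BST2 (8221 counts per kb), followed by ADAR (2330), the DNA sensor IFI16 (1750) and STAT2 (1591). By the same measure it was lowest for IFIT2 (0.748 counts per kb), IFI44L (1.95), DDX60 (2.45), RSAD2 (2.62) and OASL (2.94). Of the ISGs often used as markers of an interferon response, ISG15 stood at 135 and IFIT1 at 16.0 counts per kb. The members IFI6 (339), MX1 (337), CXCL10 (329) and OAS1 (276) stood higher, and all of these were far below BST2 and ADAR. The 5 most abundant members, ADAR, BST2, TRIM25, IFI16 and STAT2, made up 55.7% of the summed members' means. The summed reconstructed level of all 51 was 72088 in scramble, 64393 with shRNA 1 (0.893 times) and 70707 with shRNA 2 (0.981 times), and ADAR and TRIM25 together were lower by more counts than this whole difference with shRNA 1.

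With shRNA 1, ISGs moved in both directions. HERC6, PARP9 and IFI44 rose the most among those that passed, and ADAR, SAMD9L, TRIM25 and STAT2 fell the most. The authors tested 44 of the 51 members, the other 7 being too low to carry an adjusted p; 18 of the 44 (40.9%) changed at an adjusted p below 0.05, 11 higher and 7 lower. Over all genes tested, 24.6% changed, 9.80% higher and 14.8% lower. Among genes with a mean of 50 or more, 41.9% of 43 members and 27.0% of all 12977 genes changed. The median log2 fold change of tested members was 0.19, against -0.03 over all genes tested. With shRNA 2, 24 of 48 tested members (50%) changed, 13 higher and 11 lower, against 29.0% of all genes tested, 10.9% higher and 18.1% lower. The median was 0.27 for the members and -0.0026 for all genes tested. Among genes with a mean of 50 or more, 55.8% of members and 36.4% of all genes changed with shRNA 2.

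**Figure D2:**
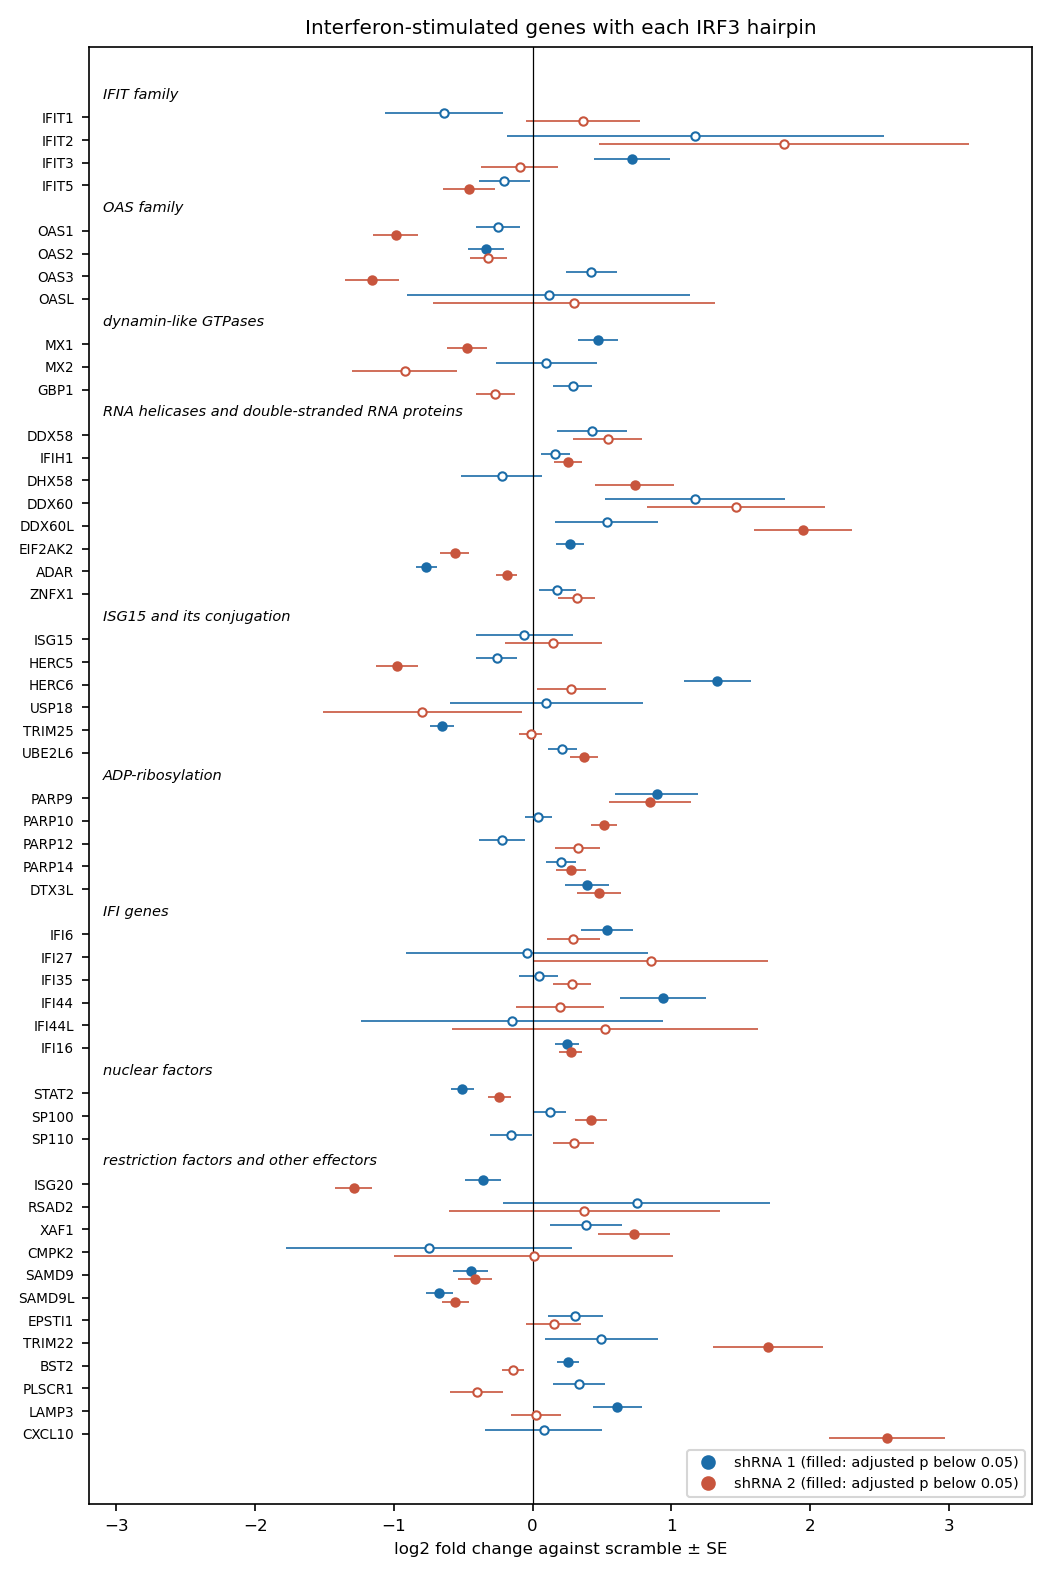
Log2 fold change against scramble (x axis) with its SE (bars) for each of the 51 members, in groups by role, from the authors' deposited tables. Filled points have a DESeq2 adjusted p below 0.05; the ADP-ribosylation genes lie mostly to the right of 0 in both comparisons, while MX1 and EIF2AK2 lie on opposite sides.

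The hairpins were then compared with each other. The ratio of shRNA 2 over shRNA 1 is the difference of the 2 deposited log2 fold changes, in which the scramble level cancels, and was tested by a two-sided z test with Benjamini-Hochberg adjustment over 17054 genes. Of 48 tested members, 15 (31.2%) differed, 10 lower and 5 higher with shRNA 2, against 19.6% of all genes tested, 11.4% lower and 8.28% higher. Among genes with a mean of 50 or more, 34.9% of 43 members and 25.4% of all 12977 genes differed. Lower with shRNA 2 were OAS1, OAS3, MX1, GBP1, EIF2AK2, HERC5, HERC6, ISG20, BST2 and PLSCR1, and higher were CXCL10, DDX60L, ADAR, TRIM25 and PARP10. The SE used counts the spread of the scramble libraries and is too large; with that part taken out, 24 members differed, 13 lower and 11 higher, against 33.2% of all genes. Without the filter on low genes, GBP1, PLSCR1 and DDX60L lost this call (adjusted p of 0.0543, 0.0679 and 0.0631, z test), and 12 members differed. At that setting 8.65% of all 33095 genes differed, a share that includes many genes too low to carry an adjusted p. Among the 27 members with an ISRE core, 8 were lower and 2 higher with shRNA 2 than with shRNA 1, and among the 13 tested members whose window lacked it 2 were lower and 2 higher. Against scramble, members with the core gave 8 higher and 2 lower of 24 tested with shRNA 1, and 6 higher and 7 lower of 27 with shRNA 2. Those without it gave 2 higher and 4 lower with shRNA 1, and 4 higher and 4 lower with shRNA 2, of 13 tested in each. Over all genes tested against scramble, 9.80% were higher and 14.8% lower with shRNA 1, and 10.9% and 18.1% with shRNA 2. Whether the core goes with a direction was not tested.

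**Figure D3:**
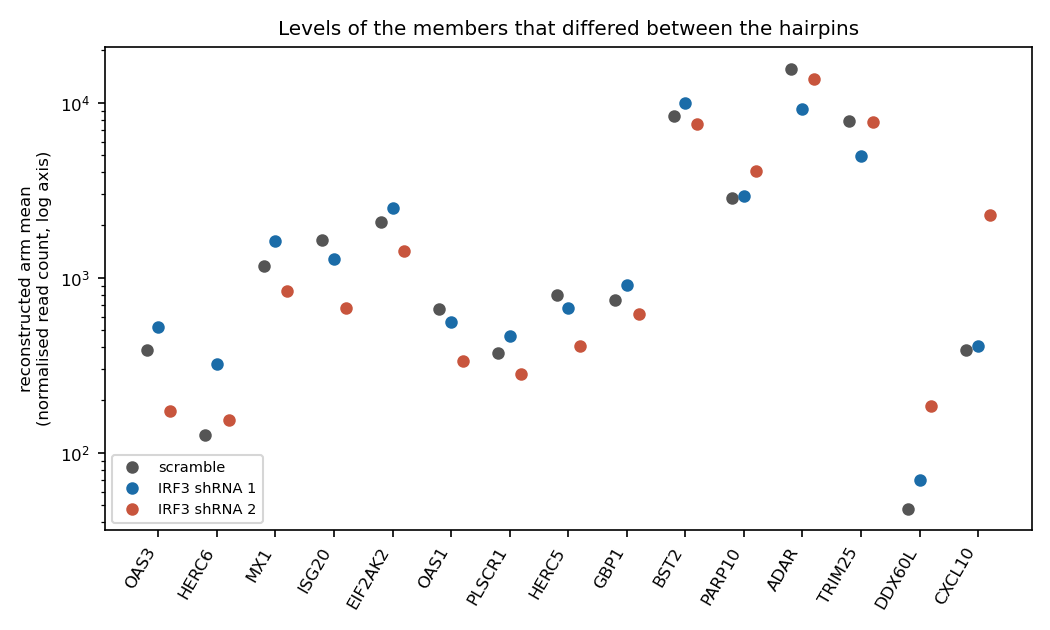
Reconstructed mean normalised read count of each arm (y axis, log scale, without error bars because single libraries were not used) for the 15 members that differed between the hairpins, ordered by the ratio of shRNA 2 over shRNA 1. The shRNA 2 point lies below the shRNA 1 point for the 10 members on the left and above it for the 5 on the right, with the widest gap at CXCL10.

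CXCL10, a chemokine that draws T cells and NK cells through the receptor CXCR3, had the widest gap between arms. Its reconstructed mean (chromosome 4, 76021117 to 76023497) was 387 normalised counts in scramble, 409 with shRNA 1 and 2274 with shRNA 2. Scramble and shRNA 1 were close to each other, and shRNA 2 stood above both. In the authors' deposited tables its log2 fold change was 0.08 ± 0.42 (SE) with shRNA 1 and 2.55 ± 0.42 with shRNA 2, with DESeq2 adjusted p of 0.930 and 1.42e-08. The shRNA 2 level was 5.87 times that of scramble, with a 95% interval of 3.34 to 10.3, and the difference between the hairpins was 2.48 ± 0.59 (adjusted p of 0.000350, z test). These SEs were unusually wide: among the 4993 genes with a mean within a factor of 2 of that of CXCL10, the median SE was 0.133 with either hairpin, and 15 had a larger SE than CXCL10 with shRNA 1. The libraries of at least 1 arm therefore differed more from each other for CXCL10 than for nearly all genes of like abundance, and the tables do not say which arm. Its relatives CXCL9 and CXCL11, named here after their values were seen, had means of 22.9 and 0.737, and the log2 fold change of CXCL9 with shRNA 2 was 1.53 ± 0.70 (authors' deposited table, DESeq2 adjusted p of 0.0872).

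**Figure D4:**
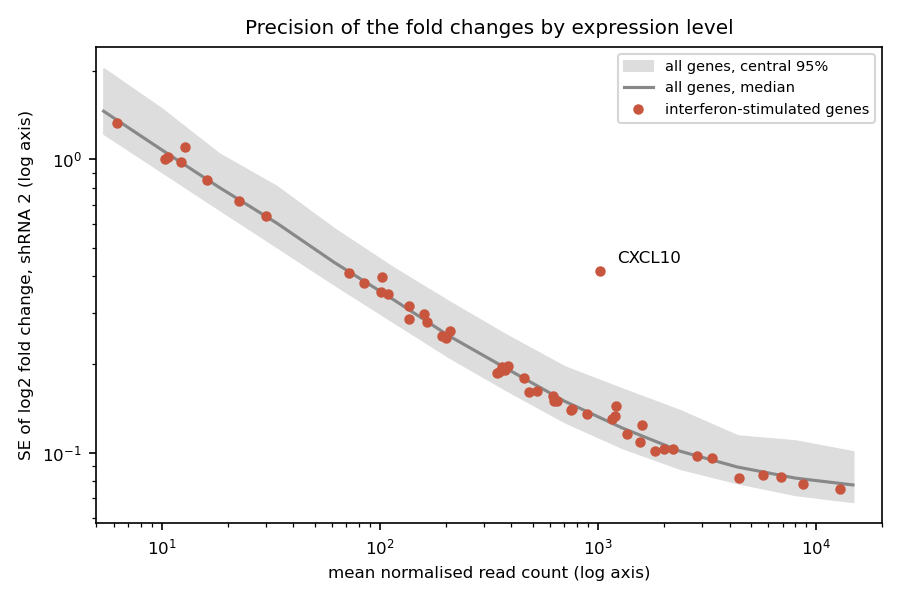
SE of the log2 fold change with shRNA 2 (y axis, log scale) against the mean normalised read count (x axis, log scale), for the 51 members (points) beside the median (line) and the central 95% (grey band) of all genes in bins of the mean. CXCL10 lies far above the band, while most other members lie near the line for all genes.

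The 3 OAS synthetases make the second messenger that activates RNase L when they bind double-stranded RNA. OAS3, the member that answers to long RNA, had reconstructed means of 389 in scramble, 521 with shRNA 1 and 174 with shRNA 2. It was thus lowest with shRNA 2, at 0.448 times scramble (95% interval 0.343 to 0.584). In the authors' deposited tables its log2 fold change was 0.42 ± 0.18 (SE) with shRNA 1, which did not pass, and -1.16 ± 0.20 with shRNA 2 (DESeq2 adjusted p of 0.0786 and 4.91e-08). The difference between the hairpins was -1.58 ± 0.27 (adjusted p of 1.29e-07, z test). OAS1 fell with shRNA 2, at -0.99 ± 0.16 (authors' deposited table, DESeq2 adjusted p of 2.14e-08), while its value with shRNA 1 was -0.25 ± 0.16. OAS2 lay at -0.34 ± 0.13 and -0.32 ± 0.13 in the authors' deposited tables, just inside the threshold with shRNA 1 and just outside it with shRNA 2 (DESeq2 adjusted p of 0.0425 and 0.0505). These genes are neighbours on chromosome 12 (112906777 to 113011723), and OASL, which lacks synthetase activity and lies apart from them, was too low to be tested (mean of 10.6).

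MX1, a dynamin-like GTPase that traps viral ribonucleoproteins, changed in opposite directions. Its reconstructed means (chromosome 21, 41420304 to 41459214) were 1170 in scramble, 1622 with shRNA 1 and 844 with shRNA 2. In the authors' deposited tables the log2 fold changes were 0.47 ± 0.14 and -0.47 ± 0.14 (SE), with DESeq2 adjusted p of 0.00604 and 0.00542. The hairpins differed by -0.94 ± 0.20 (adjusted p of 5.43e-05, z test). Its neighbour MX2, which blocks nuclear entry of HIV, had -0.92 ± 0.38 with shRNA 2 in the authors' deposited table and missed the threshold (DESeq2 adjusted p of 0.050). GBP1, a guanylate-binding GTPase that coats intracellular pathogens, passed against scramble with neither hairpin (0.29 ± 0.14 and -0.27 ± 0.14 in the authors' deposited tables). The hairpins themselves differed in GBP1, by -0.56 ± 0.20 (adjusted p of 0.0280, z test).

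Among proteins that bind double-stranded RNA, the gene for PKR also changed in opposite directions. EIF2AK2 (chromosome 2, 37099210 to 37157065) encodes PKR, the kinase that stops translation on binding double-stranded RNA. It had reconstructed means of 2090 in scramble, 2519 with shRNA 1 and 1416 with shRNA 2. In the authors' deposited tables its log2 fold changes were 0.27 ± 0.10 and -0.56 ± 0.10 (SE), with DESeq2 adjusted p of 0.0357 and 5.51e-07. ADAR (chromosome 1, 154582057 to 154628013), which edits adenosine in double-stranded RNA and keeps PKR and MDA5 from answering to the cell's own RNA, was lowest with shRNA 1. Its reconstructed means were 15610 in scramble, 9175 with shRNA 1 and 13712 with shRNA 2. The authors' deposited tables give ADAR log2 fold changes of -0.77 ± 0.08 and -0.19 ± 0.08 (SE), with DESeq2 adjusted p of 6.60e-22 and 0.0466. Between the hairpins EIF2AK2 differed by -0.83 ± 0.14 and ADAR by 0.58 ± 0.11 (adjusted p of 2.53e-07 and 1.48e-06, z test).

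Among the helicases that sense RNA and their relatives, DDX60L, DHX58 and IFIH1 rose with shRNA 2. DDX58 (RIG-I), which recognises RNA with a 5' triphosphate, was at 0.43 ± 0.25 and 0.54 ± 0.25, and IFIH1 (MDA5), which binds long double-stranded RNA, at 0.17 ± 0.10 and 0.26 ± 0.10 (log2 fold change ± SE, authors' deposited tables). Of these only IFIH1 with shRNA 2 passed (authors' deposited table, DESeq2 adjusted p of 0.0393). DHX58 (LGP2), a regulator of both, was at -0.22 ± 0.29 with shRNA 1 and rose with shRNA 2, at 0.74 ± 0.28 (authors' deposited table, DESeq2 adjusted p of 0.0362). The related helicase gene DDX60L had reconstructed means of 48.0 in scramble, 69.5 with shRNA 1 and 186 with shRNA 2. It rose with shRNA 2 by 1.95 ± 0.35 (log2) in the authors' deposited table (DESeq2 adjusted p of 4.44e-07) and differed between the hairpins by 1.42 ± 0.51 (adjusted p of 0.0325, z test). Its close copy DDX60, with a mean of 29.8, was at 1.17 ± 0.65 and 1.46 ± 0.64 in the authors' deposited tables, with no call. ZNFX1, a helicase-like sensor on mitochondria, was at 0.18 ± 0.14 and 0.32 ± 0.14 in the authors' deposited tables, with no call. Together with EIF2AK2 and ADAR, 1 of these 8 genes was higher and 1 lower with shRNA 1, and 3 were higher and 2 lower with shRNA 2. Calls over all genes tested were 24.6% and 29.0%.

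ISG15 is a ubiquitin-like protein that is attached to other proteins by UBE2L6 and HERC5 and removed by USP18. ISG15 itself was at -0.06 ± 0.35 and 0.15 ± 0.35 (log2 fold change ± SE, authors' deposited tables). The 95% intervals were 0.596 to 1.54 and 0.693 to 1.78 times scramble, so that changes within these limits were not excluded. HERC5, its main ligase in human cells, had reconstructed means of 799 in scramble, 668 with shRNA 1 and 406 with shRNA 2. HERC5 fell with shRNA 2, at -0.98 ± 0.15 in the authors' deposited table (DESeq2 adjusted p of 1.35e-09). HERC6, the relative next to it on chromosome 4, had 127 in scramble, 320 with shRNA 1 and 154 with shRNA 2. It rose with shRNA 1, at 1.33 ± 0.24 in the authors' deposited table (DESeq2 adjusted p of 6.74e-07), the largest rise of a called member in that comparison. These neighbours thus had their outlying level in different arms, and both were lower with shRNA 2 than with shRNA 1, by -0.72 ± 0.21 for HERC5 and -1.05 ± 0.35 for HERC6 (adjusted p of 0.00501 and 0.0153, z test). TRIM25, a ubiquitin and ISG15 ligase that activates RIG-I, fell with shRNA 1, at -0.65 ± 0.08 (DESeq2 adjusted p of 2.64e-13), and was at -0.01 ± 0.08 with shRNA 2 in the authors' deposited tables, a sign that turned, to 0.028, when recentred on the median gene. UBE2L6, the conjugating enzyme, was at 0.21 ± 0.10 and 0.37 ± 0.10 in the authors' deposited tables and passed with shRNA 2 (DESeq2 adjusted p of 0.00191); USP18 was low, with a mean of 22.5.

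Genes of ADP-ribosylation that passed against scramble were higher. Of 5 tested, 2 were higher with shRNA 1 and 4 with shRNA 2, and 0 were lower in either by DESeq2 (also 0 at an unadjusted p below 0.05). Over all genes tested, 9.80% were higher with shRNA 1 and 10.9% with shRNA 2. PARP9 and its partner ligase DTX3L, a pair that enhances the interferon response, are transcribed from a shared divergent promoter on chromosome 3 (122527924 to 122575203). PARP9 had reconstructed means of 102 in scramble, 189 with shRNA 1 and 183 with shRNA 2, and DTX3L 500, 656 and 697. Both genes were thus lowest in scramble and close to each other under the 2 hairpins. In the authors' deposited tables PARP9 was at 0.89 ± 0.30 and 0.85 ± 0.30 and DTX3L at 0.39 ± 0.16 and 0.48 ± 0.16 (log2 fold change ± SE), and each passed in both (DESeq2 adjusted p of 0.0146, 0.0183, 0.0499 and 0.010). Exons of PARP9 and DTX3L overlap on opposite strands in GENCODE 29, and as no source used here says if the counting used strand, reads from the shared part cannot be assigned with certainty. PARP14, a mono-ADP-ribosyltransferase nearby, was at 0.21 ± 0.11 and 0.28 ± 0.11, and PARP10, another, at 0.04 ± 0.10 and 0.51 ± 0.10, in the authors' deposited tables, where both passed with shRNA 2 (DESeq2 adjusted p of 0.0369 and 1.07e-06). PARP12 was at -0.22 ± 0.16 and 0.32 ± 0.16 in the authors' deposited tables, with no call.

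The IFIT genes encode RNA-binding proteins that recognise foreign 5' ends and sit side by side on chromosome 10 (89283694 to 89421001). IFIT3, the scaffold of the family, had reconstructed means of 137 in scramble, 225 with shRNA 1 and 128 with shRNA 2. It rose with shRNA 1, at 0.72 ± 0.27, and was at -0.09 ± 0.28 with shRNA 2 in the authors' deposited tables (DESeq2 adjusted p of 0.0371 and 0.867). IFIT1 was at -0.64 ± 0.42 and 0.36 ± 0.41, and IFIT5 at -0.20 ± 0.19 and -0.46 ± 0.19, of which only IFIT5 with shRNA 2 passed (DESeq2 adjusted p of 0.0492, authors' deposited tables). IFIT2, with a mean of 6.24, could not be tested. Between the hairpins 0 of the 3 tested IFIT genes differed by the z test, although IFIT3 did at an unadjusted p below 0.05, and with the scramble spread taken out IFIT3 passed (adjusted p of 0.0115, z test). Over all genes tested the hairpins differed in 19.6%, and in 33.2% with the scramble spread taken out. Across the 7 genes that IRF3 can induce without interferon, 4 were tested with shRNA 1 and 5 with shRNA 2. The 1 gene that changed was IFIT3 (higher) with shRNA 1 and CXCL10 (higher) with shRNA 2, or 25% and 20% of those tested. Shares over all genes tested were 24.6% and 29.0%, so that these counts are near or below the background.

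Of the genes named IFI, IFI16, a DNA sensor in the nucleus, rose slightly in both comparisons, at 0.25 ± 0.08 and 0.28 ± 0.08 (log2 fold change ± SE, authors' deposited tables, DESeq2 adjusted p of 0.0168 and 0.00515). IFI6, an inhibitor of apoptosis and of viral replication at the endoplasmic reticulum, had reconstructed means of 285 in scramble, 414 with shRNA 1 and 350.0 with shRNA 2, and IFI44 had 101, 192 and 115. Both were highest with shRNA 1, where they passed at 0.54 ± 0.19 and 0.94 ± 0.31 (DESeq2 adjusted p of 0.0212 and 0.0140, authors' deposited table). IFI35 was at 0.04 ± 0.14 and 0.29 ± 0.14 in the authors' deposited tables, with no call. IFI27 and IFI44L, with means of 16.0 and 12.8, were tested with shRNA 2 only and did not pass. Between the hairpins 0 of the 6 IFI genes differed by the z test, also at an unadjusted p below 0.05. Over all genes tested 19.6% differed, so that 0 of 6 says little. The SEs of this difference were wide for IFI27 (1.22) and IFI44L (1.55).

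Among nuclear factors, STAT2 (chromosome 12, 56341597 to 56360155) fell in both comparisons. Its reconstructed means were 5186 in scramble, 3652 with shRNA 1 and 4390 with shRNA 2. The authors' deposited tables give -0.51 ± 0.08 and -0.24 ± 0.08 (log2 fold change ± SE), with DESeq2 adjusted p of 2.06e-08 and 0.0146. SP100, a component of PML nuclear bodies, rose with shRNA 2, at 0.42 ± 0.12 (DESeq2 adjusted p of 0.00147), and was at 0.13 ± 0.12 with shRNA 1 in the authors' deposited tables. Its relative SP110 was at -0.15 ± 0.15 and 0.30 ± 0.15 in the authors' deposited tables, with no call.

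Restriction factors and other effectors split as well. ISG20, an exonuclease that degrades viral RNA, had reconstructed means of 1642 in scramble, 1281 with shRNA 1 and 672 with shRNA 2, and fell in both. Its log2 fold changes were -0.36 ± 0.13 and -1.29 ± 0.13 (DESeq2 adjusted p of 0.0295 and 3.08e-20, authors' deposited tables), and the hairpins differed by -0.93 ± 0.19 (adjusted p of 1.28e-05, z test). The growth-restraining pair SAMD9 and SAMD9L, neighbours on chromosome 7 (93099513 to 93148369) that stop translation, also fell in both. SAMD9L had reconstructed means of 3674 in scramble, 2306 with shRNA 1 and 2495 with shRNA 2, and SAMD9 1910, 1401 and 1432. In the authors' deposited tables SAMD9L was at -0.67 ± 0.10 and -0.56 ± 0.10 and SAMD9 at -0.45 ± 0.12 and -0.42 ± 0.12 (DESeq2 adjusted p of 2.42e-10, 1.55e-07, 0.00256 and 0.00442). The ratio of the hairpins for SAMD9L had a log2 value of 0.11, with a 95% interval of -0.16 to 0.38. These copies resemble each other, and the division of reads between them is an estimate.

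BST2 (tetherin), which holds budding virions at the cell surface, rose with shRNA 1, from 8377 in scramble to 10011 (reconstructed), and stood at 7598 with shRNA 2. Its log2 fold changes were 0.26 ± 0.08 and -0.14 ± 0.08 (DESeq2 adjusted p of 0.00622 and 0.181, authors' deposited tables), and the hairpins differed by -0.40 ± 0.11 (adjusted p of 0.00288, z test). The scramblase PLSCR1 passed against scramble in neither comparison (0.33 ± 0.19 and -0.40 ± 0.19 in the authors' deposited tables), while the hairpins differed by -0.73 ± 0.27 (adjusted p of 0.0350, z test). LAMP3, a lysosomal membrane protein, rose with shRNA 1, at 0.61 ± 0.18 (DESeq2 adjusted p of 0.00396), and was at 0.02 ± 0.18 with shRNA 2 in the authors' deposited tables. The HIV restriction factor TRIM22 had reconstructed means of 54.3 in scramble, 76.6 with shRNA 1 and 176 with shRNA 2. It rose with shRNA 2, at 1.69 ± 0.40, as did the pro-apoptotic gene XAF1, at 0.73 ± 0.26 (DESeq2 adjusted p of 0.000147 and 0.0194, authors' deposited table). EPSTI1 was at 0.31 ± 0.20 and 0.15 ± 0.20 in the authors' deposited tables, with no call. RSAD2 (viperin) and its divergent neighbour CMPK2, which supplies its nucleotide substrate, had means of 12.2 and 10.3 and gave no call.

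Neighbouring members were also set side by side. In 9 places 2 or more members lay within 100 kb of each other, holding 21 of the 51. HERC6 was called with shRNA 1 and HERC5 with shRNA 2. In the OAS trio all 3 lay below 0 with shRNA 2, where OAS1 and OAS3 passed, and only OAS2 passed with shRNA 1. PARP9 with DTX3L and SAMD9 with SAMD9L each moved together in both comparisons, but in these pairs the division of reads between the genes is uncertain. In the IFIT group IFIT3 passed as higher with shRNA 1 and IFIT5 as lower with shRNA 2. MX1, IFI44 and DDX60L passed in a comparison, while their neighbours MX2, IFI44L and DDX60 did not. RSAD2 and CMPK2 gave no call. The differences between neighbours were not tested.

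Upstream of the ISGs, of 36 genes for ligands, receptors, kinases, factors and inhibitors of interferon signalling, 29 were in the tables and 25 were tested with shRNA 1, where 2 were higher and 7 lower. With shRNA 2, 26 were tested, and 6 were higher and 7 lower. These are 36% and 50% of the genes tested, against 24.6% and 29.0% over all genes. Among all genes with a mean of 50 or more, 27.0% and 36.4% changed. IFNB1, IFNA1, IFNA2, IFNE, IFNL2, IFNL3 and IFNW1 were not listed in the tables; IFNG had a mean of 13.5, and IFNL1 and IFNK means of 0.332 and 0.318 (these 3 were chosen after their values were seen). All 6 receptor genes were called with shRNA 2, 3 in each direction. The type I receptor chains IFNAR1 and IFNAR2 were at -0.15 ± 0.08 and -0.35 ± 0.09 with shRNA 1 and at -0.45 ± 0.08 and -0.55 ± 0.09 with shRNA 2, in the authors' deposited tables; of these only IFNAR1 with shRNA 1 did not pass (DESeq2 adjusted p of 0.173). A second identifier that carries the symbol IFNAR2, named AP000295.1 in GENCODE 29 and taken up after its values were seen, had a mean of 114 and was at -4.57 ± 0.73 and -0.55 ± 0.36 in the authors' deposited tables. The type II receptor chain IFNGR1 had reconstructed means of 565 in scramble, 373 with shRNA 1 and 773 with shRNA 2, and passed in opposite directions (-0.60 ± 0.17 and 0.45 ± 0.17, DESeq2 adjusted p of 0.00343 and 0.0259, authors' deposited tables). IL10RB, the chain shared by the type III receptor, did likewise, at -0.65 ± 0.11 and 0.29 ± 0.10, whereas its partner IFNLR1 fell with shRNA 2, at -0.74 ± 0.13 (DESeq2 adjusted p of 2.56e-08, 0.0232 and 5.02e-07, authors' deposited tables). IFNGR2 rose in both, at 0.30 ± 0.10 and 0.47 ± 0.10 (DESeq2 adjusted p of 0.0188 and 3.83e-05, authors' deposited tables).

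Of the kinases, JAK1 rose with shRNA 2, at 0.60 ± 0.09, and JAK2 fell, at -0.69 ± 0.18 (DESeq2 adjusted p of 4.71e-10 and 0.00115, authors' deposited table). IRF9 was at 0.04 ± 0.19 and -0.24 ± 0.19 and passed in neither (DESeq2 adjusted p of 0.920 and 0.411, authors' deposited tables). STAT3 fell with shRNA 1, at -0.64 ± 0.12, and IRF7, the amplifier of interferon induction, did so at -0.40 ± 0.15, while with shRNA 2 they were at 0.22 ± 0.12 and 0.30 ± 0.15 and did not pass (authors' deposited tables). IRF1 passed with shRNA 2, at 0.21 ± 0.09 (DESeq2 adjusted p of 0.0497, authors' deposited table). Among the inhibitors, the phosphatase PTPN6 was higher with shRNA 1 and lower with shRNA 2, at 0.28 ± 0.10 and -0.52 ± 0.10 (DESeq2 adjusted p of 0.0286 and 3.44e-06, authors' deposited tables). PIAS1 and PTPN2 were lower with shRNA 1, at -0.31 ± 0.11 and -0.30 ± 0.11, and PTPN11 was lower and PIAS3 higher with shRNA 2, at -0.37 ± 0.10 and 0.43 ± 0.11 (authors' deposited tables).

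A further 60 ISGs that are not members gave these calls: 18 of 49 tested with shRNA 1 (9 higher and 9 lower) and 18 of 53 with shRNA 2 (10 higher and 8 lower). These are 36.7% and 34.0%, against 24.6% and 29.0% of all genes tested. Among all genes with a mean of 50 or more, 27.0% and 36.4% changed, so that the share with shRNA 2 is near the background. Their median log2 fold changes were 0.0023 and 0.0069. Ranked by the smaller of their 2 changes, the first 4 of the 5 genes that were higher in both comparisons were the GTPase gene GBP4 (0.98 ± 0.20 and 1.01 ± 0.20), NMI (0.67 ± 0.21 and 0.52 ± 0.21), APOL2 (0.41 ± 0.09 and 0.40 ± 0.09) and the cytidine deaminase gene APOBEC3F (0.36 ± 0.12 and 0.39 ± 0.12) in the authors' deposited tables, followed by APOL1 (0.28 ± 0.08 and 0.90 ± 0.08). DCK, a nucleoside kinase, at -0.41 ± 0.13 and -1.07 ± 0.14, and the Z-form nucleic acid sensor ZBP1, at -0.31 ± 0.09 and -0.51 ± 0.09, were lower in both (authors' deposited tables).

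Calls near the threshold depended on the processing. With shRNA 1, ISG20, EIF2AK2, IFIT3, OAS2 and DTX3L lost the call when genes without an adjusted p were added to the adjustment, and ISG20 and OAS2 also when recentred on the median gene, where OAS3 gained it. With shRNA 2, ADAR, PARP14, IFIH1, IFIT5 and DHX58 lost it in the first case and ADAR, STAT2 and IFIT5 in the second, where ZNFX1 gained it. In GENCODE 29, exons of 15 members overlap a gene on the opposite strand, among them EIF2AK2, TRIM25, MX1, OAS1 and PARP10, which makes the levels of these 15 less certain.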

How the data were processed

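Poly(A)-selected RNA of MM.1S cells was sequenced in 6 libraries. The submitters' processing notes name Salmon 0.12.0, DESeq2 1.24.0 and the build GRCh38 (hg38), without settings. The 2 deposited tables hold, per the file headers, the mean normalised read count as a signal over libraries (baseMean), the log2 fold change and its SE on the log2 scale, the Wald score and the p-value and adjusted p-value as the authors computed them. Means were identical in both tables. Adjusted p-values are absent below a mean of 26.8 with shRNA 1 and 11.8 with shRNA 2 in the deposited tables. The main test is the authors' DESeq2 result at an adjusted p below 0.05.

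Arm means were reconstructed from the deposited mean and both fold changes, taking the mean as the average of 3 equal arms. The coding as shRNA over scramble was checked on dispersions solved from each table, whose median absolute log ratio was 0.00595 as coded and 0.0795 to 0.158 with signs turned. The difference between hairpins was tested by z (scipy 1.17.1). Alternatives were other thresholds, a minimum size of change, adjustment over all genes, recentring on the median gene with a mean of 50 or more, the SE of the difference and the motif. Coordinates and exons are from GENCODE 29 (GRCh38) and promoter sequences from RefSeq (GRCh38.p14).

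The members and gene lists were chosen with earlier results of these data known. Named genes are all members, signalling genes that passed in a comparison together with receptors and IRF9, IRF3, IRF4, IRF7, and up to 4 higher and 4 lower other ISGs ranked, among those called alike in both, by the smaller of their 2 changes. With no counts of single libraries, no library was left out in turn. One signalling gene that the rule takes in is not reported here.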

Additional observations from a re-analysis of the deposited data

Results flagged for a closer look

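The results below had a different effect with the 2 hairpins, by the z test of the difference (log2 ratio of shRNA 2 over shRNA 1, adjusted over 17054 genes). Lower with shRNA 2 among the members were OAS3 (-1.58), HERC6 (-1.05), MX1 (-0.94), ISG20 (-0.93), EIF2AK2 (-0.83), OAS1 (-0.74), PLSCR1 (-0.73), HERC5 (-0.72), GBP1 (-0.56) and BST2 (-0.40). Higher were CXCL10 (2.48), DDX60L (1.42), TRIM25 (0.64), ADAR (0.58) and PARP10 (0.47). MX1 and EIF2AK2 passed against scramble with both hairpins, in opposite directions. The share of all genes that did so was not counted, so whether this is unusual is not known.

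In the signalling genes the ratio was 1.05 for IFNGR1, 0.94 for IL10RB, 0.86 for STAT3, 0.70 for IRF7, 0.54 for PIAS3, 0.52 for JAK1 and 0.47 for PTPN2. It was -0.80 for PTPN6, -0.50 for IFNLR1 and -0.30 for IFNAR1. Outside these, DCK was at -0.66, IRF3 at 1.35 and IRF4 at -0.66. What these differences come from was not tested.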

How the results depend on the processing

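Members called are given with the share of all genes tested that passed at the same setting. At an adjusted p below 0.01, 9 of 44 members were called with shRNA 1 (4 higher; all genes 17.1%) and 15 of 48 with shRNA 2 (7 higher; all genes 21.8%). With a minimum absolute log2 fold change of 0.5, there were 10 with shRNA 1 (6 higher and 4 lower; all genes 13.8%) and 13 with shRNA 2 (7 higher and 6 lower; all genes 18.7%). Without the filter on low genes the counts were 13 and 19 of 51 (all genes 8.92% and 13.3%). These 2 shares are over all 33095 genes, many too low to carry an adjusted p in the deposited tables, which lowers the shares. Recentred on the median gene, the counts were 17 and 22 (all genes 24.4% and 29.0%). For the difference between the hairpins, 11 members passed at an adjusted p below 0.01 (all genes 13.9%). Without the filter 12 of 51 passed (8.65%, again over all 33095 genes). An adjusted p below 0.1 gave 19, of which 8 were higher (23.5%), and an SE without the scramble variance 24, of which 11 were higher (33.2%). The sign of 1 value turned in these runs: TRIM25 with shRNA 2, not called, went from -0.01 to 0.028 when recentred. The ISRE core count of 27 was 29 with 1 base fewer at its end, 22 with a C added there and 25 before the start only. The share of all gene symbols with a match was 4.38% for the main core and, for these settings in turn, 9.86%, 0.952% and 3.71%. Members with low means limit the depth of the result: IFIT2, OASL and CMPK2 could be tested in no comparison. No paired analysis was possible because the tables hold no values of single libraries, and for the same reason no library was left out in turn.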
